A study of Isostichopus badionotus with 6 samples.

Results

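The cAMP response element binding protein CREB1 and phosphoenolpyruvate carboxykinase 1 (PCK1) were each given as the name of 1 assembled transcript of the body wall of the sea cucumber Isostichopus badionotus, transcript 16 of Locus_5485 for CREB1 and transcript 14 of Locus_10568 for PCK1. All counted rows of these 2 loci were taken, which gave 5 transcripts at the CREB1 locus and 3 at the PCK1 locus, 8 of 129776 transcripts and 2 of 80132 loci. The rows were thus set by their locus, while the 2 loci were chosen with earlier results of these data known. The names come from the study's list of transcripts that differed between wild and farmed animals. The names rest on the nearest database match of the named transcript, a bat sequence for CREB1 and a whale shark sequence for PCK1, so that they hold for those transcripts only, and the other transcripts of a locus are given by number.

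CREB1 is a transcription factor that binds the cAMP response element after phosphorylation by kinases that respond to cAMP, calcium or stress, and it recruits coactivators to its target genes. PCK1, in vertebrates the cytosolic form of the enzyme, turns oxaloacetate into phosphoenolpyruvate, the step that commits carbon to glucose synthesis. In the mammalian liver PCK1 is a classical target of CREB1 during fasting. This link is given as background from mammals.

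RNA was measured in the body wall of 6 captive animals that the labels divide by stage. Juveniles 1 to 4 carry the environment label "Captivity", and adults 5 and 6 carry "Captivity adapted", while the text on the design of the series calls all of them juvenile specimens from the farm. By the study's account, farmed animals were 4 offspring of captive brood stock that grew up in indoor tanks on algae. The study also speaks of animals raised in culture or kept there after being caught, and the labels quoted here do not say which holds for an animal. The sample labels give no sex, batch or tank per animal, so stage, the environment label, origin and any batch cannot be told apart. Each animal is 1 library and 1 replicate, and the p-values measure the spread between these animals. Library totals lay between 21714696 and 31742950 counts. Levels are counts per 1000000 (CPM) on totals scaled by the trimmed mean of M values (TMM), whose factors were 0.999 to 1.45 in the juveniles, 0.937 in adult 5 and 0.50 in adult 6. In adult 6 the 10 most abundant transcripts took 34.8% of the counts, against 16.2% to 23.7% in the other 5 libraries. As markers of the tissue, the 8 transcripts named as collagen were counted in every animal, with a summed level of 54.2 to 236 CPM among juveniles and of 383 to 563 CPM in the adults.

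CREB1 transcript 16, of 2567 nt, was present at a low level in every animal. It had 149, 42, 98 and 186 counts in juveniles 1 to 4, beside 32 counts in adult 5 and 38 in adult 6. These counts correspond to 3.86, 1.94, 2.70 and 4.52 CPM in the juveniles and to 1.44 and 2.90 CPM in the adults. Juveniles 1 and 4 were above both adults, while juveniles 2 and 3 lay between the adults, so that the groups overlapped. From high to low the order was juvenile 4, juvenile 1, adult 6, juvenile 3, juvenile 2 and adult 5, and the exact Poisson 95% intervals of neighbours in this order overlapped at each step. The highest animal was 3.15-fold over the lowest one. These intervals cover counting error only.

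PCK1 transcript 14, of 3658 nt, was counted 157, 160, 135 and 199 times in juveniles 1 to 4, but 59 times in adult 5 and 47 times in adult 6. Its levels were 4.07, 7.37, 3.71 and 4.84 CPM in the juveniles, against 2.65 CPM in adult 5 and 3.59 CPM in adult 6. Every juvenile was above both adults, although juvenile 3 exceeded adult 6 by a margin well inside their counting intervals, 3.11 to 4.40 CPM for juvenile 3 and 2.64 to 4.78 CPM for adult 6. The highest level was that of juvenile 2, with an interval of 6.27 to 8.61 CPM that lay above those of the other 5 animals. This separation assumes independent counts and may not hold if both reads of a pair were counted. The order of the other animals was juvenile 4, juvenile 1, juvenile 3, adult 6 and adult 5, with overlapping intervals between neighbours. Among all transcripts tested, 10.8% had every juvenile above both adults. Testing asked for at least 3 CPM on library totals in at least 3 animals. The 4 juveniles alone can meet this, while the 2 adults alone cannot. PCK1 transcript 14 met it in juveniles only, so this share is not independent of the filter. With size factors of DESeq2 in place of TMM the separation of the groups ended, as juvenile 3 then stood at 3.67 CPM and adult 6 at 3.76 CPM.

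**Figure D1:**
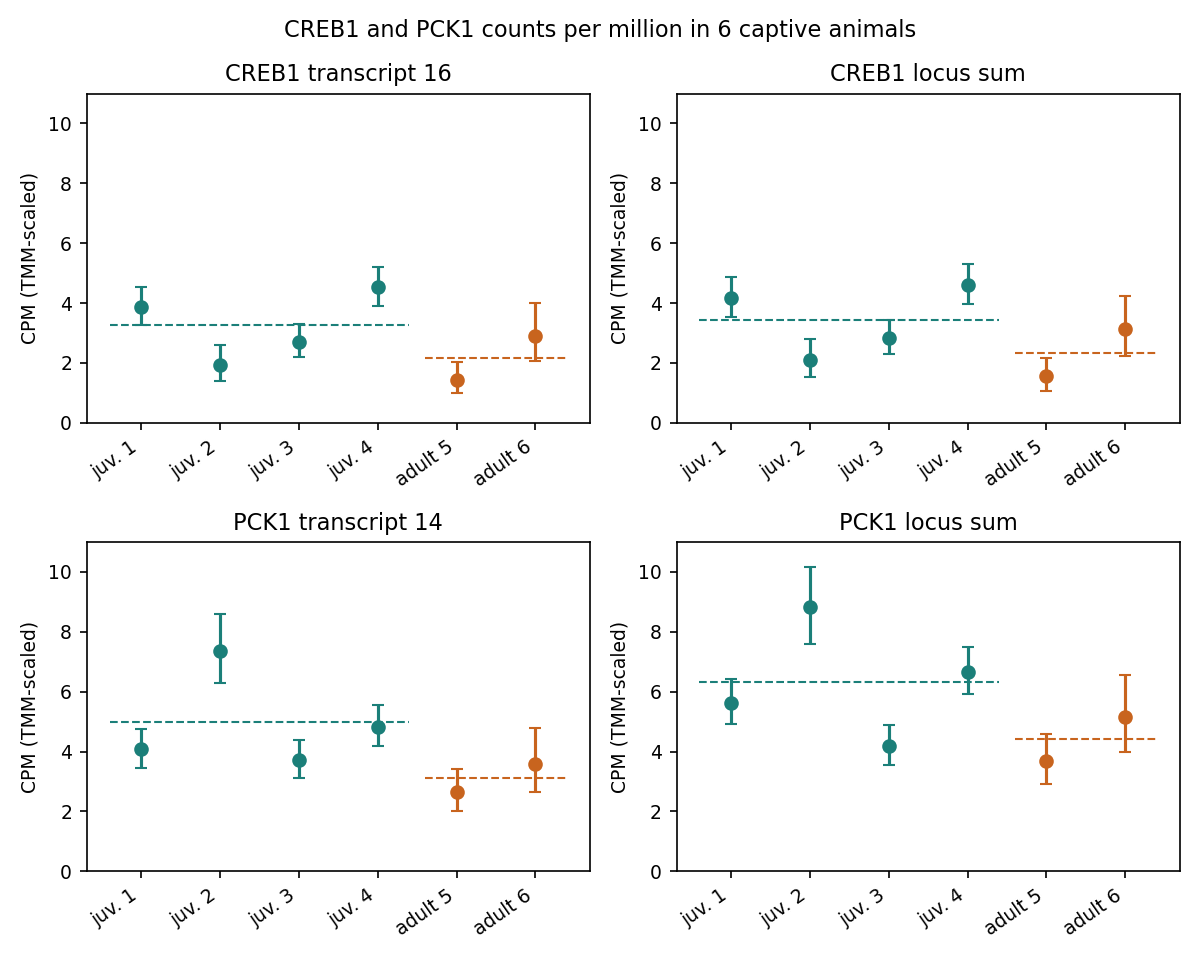
Levels of the CREB1 and PCK1 named transcripts (left) and locus sums (right) in CPM on TMM-scaled totals, 1 point per animal, juveniles in teal and adults in orange, with exact Poisson 95% intervals and dashed group means. PCK1 transcript 14 peaks in juvenile 2 at 7.37 CPM, where CREB1 transcript 16 is at 1.94 CPM, the lowest of the 4 juveniles.

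Per unit of full assembled length both named transcripts stood at a similar level. Only reads with a unique match were counted, and the length open to such matches is not known. This likeness and the ranks by length are thus uncertain. CREB1 transcript 16 had 1.27 ± 0.451 CPM per kb (SD, n = 4 juveniles) and 0.560 and 1.13 CPM per kb in adults 5 and 6. PCK1 transcript 14 had 1.37 ± 0.451 CPM per kb (SD, n = 4 juveniles) and 0.724 and 0.982 CPM per kb in the adults. Among the 18716 transcripts with at least 3 CPM in at least 3 animals, which were those tested, the median of the juvenile means was 5.80 CPM per kb. Of these transcripts, 2.23% were below CREB1 transcript 16 and 2.93% below PCK1 transcript 14 in the juveniles. Most of the 129776 transcripts lay under the minimum of 3 CPM and are outside this ranking. The coefficient of variation among the juveniles was 35.6% for CREB1 transcript 16 and 33.0% for PCK1 transcript 14, against a median of 37.8% over all transcripts tested.

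The comparison of juveniles with adults asked whether either gene differed between the groups labelled by stage, which also differ in their environment label. CREB1 transcript 16 had a mean of 3.25 ± 1.16 CPM (SD, n = 4 juveniles) against 2.17 CPM in the adults (1.44 and 2.90 CPM). Its log2 fold change of juveniles over adults was 0.60 ± 0.54 (SE), with a 95% interval of -0.68 to 1.87 and an adjusted p of 0.772 by edgeR's quasi-likelihood test. PCK1 transcript 14 had a mean of 5.00 ± 1.65 CPM (SD, n = 4 juveniles) against 3.12 CPM in the adults (2.65 and 3.59 CPM). Its log2 fold change was 0.68 ± 0.45 (SE), with an interval of -0.37 to 1.73 and an adjusted p of 0.695 in the same fit. Neither difference passed the test, and both intervals include higher as well as lower levels in the juveniles. In bulk RNA of a body wall, fewer cells of a type and less RNA per cell cannot be told apart.

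The fit across all transcripts gave no call at an adjusted p of 0.05, 0% of the 18716 tested, so that the absence of a call is not particular to CREB1 or PCK1. At an unadjusted p under 0.05 there were 1417 transcripts, of which 3.69% of all tested were higher and 3.88% lower in the juveniles, and neither CREB1 transcript 16 (unadjusted p of 0.305 in edgeR's quasi-likelihood test) nor PCK1 transcript 14 (unadjusted p of 0.170) was among them. The exact test of edgeR called 42 transcripts and the Wald test of DESeq2 called 95, again without either of the named transcripts (adjusted p of 0.935 and 0.852 for CREB1 transcript 16, and of 0.893 and 0.760 for PCK1 transcript 14). The median log2 fold change over all transcripts tested was 0.11. A log2 fold change at least as high as that of CREB1 transcript 16 was found in 22.7% of them, and one at least as high as that of PCK1 transcript 14 in 19.3%. CREB1 transcript 16 reached 3 CPM on library totals in 3 juveniles and PCK1 transcript 14 in 4, and neither did in an adult. Both were thus tested through juveniles alone, a route closed to transcripts high only in the adults. Their positive sign and these shares are not independent of the filter. Without a filter their log2 fold changes were 0.65 and 0.74, where the median was 0.57.

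The scale of the libraries had a larger effect on both genes than the choice of the test. On library totals alone, without TMM, the log2 fold change of CREB1 transcript 16 was 1.55 (adjusted p of 0.316 by edgeR's quasi-likelihood test) and that of PCK1 transcript 14 was 1.48 (adjusted p of 0.316), and every juvenile was above both adults for each of them. The median of all transcripts tested then rose to 0.86, so that relative to this median the values were 0.70 and 0.62, against 0.49 and 0.57 with TMM. CREB1 transcript 16 also depended on the adults. Without adult 5 its log2 fold change was 0.17 and matched the median of that fit (0.17), and without adult 6 it was 1.15. A lone adult is assumed to vary like the juveniles in these fits.

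At the CREB1 locus 5 of the assembled transcripts were counted, which are numbered up to 19, and those with other numbers were not analysed here. Transcript 16 held nearly all counts of the locus. The others were transcript 7 (991 nt) with 15 counts over the 6 animals, transcript 10 (576 nt) with 10, transcript 6 (896 nt) with 9 and transcript 9 (568 nt) with 0. Transcript 6 was counted 5, 0, 2 and 2 times in the juveniles and 0 times in both adults, where 3 counts would correspond to 0.135 CPM in adult 5 and 0.229 CPM in adult 6. Its highest juvenile level of 0.130 CPM was under both of these limits, so that no difference was detectable at this depth. Transcript 7 reached 0.156 CPM in juvenile 1 and transcript 10 reached 0.153 CPM in adult 6, and both had animals without a count in each group.

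Transcript 16 took 91.4%, 93.3%, 94.2% and 96.4% of the counts of the CREB1 locus in juveniles 1 to 4, against 94.1% in adult 5 and 95% in adult 6. The lowest share, in juvenile 1, had a Wilson 95% interval of 86.1% to 94.8%, and the highest, in juvenile 4, one of 92.7% to 98.2%. The mean share of the juveniles was 93.8 ± 2.06% (SD, n = 4), a difference of -0.722 percentage points from that of the adults, with p = 0.667 in an exact two-sided permutation test. With 4 animals against 2 there are 15 arrangements, and the smallest p they allow is 0.0667. Without juvenile 1 the difference was 0.0869 points in the other direction.

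The PCK1 locus was less dominated by its named transcript. Transcripts 14, 6 and 8 were counted of those numbered up to 16. Transcript 6, of 504 nt, had 30, 11, 8 and 50 counts in juveniles 1 to 4, against 20 in adult 5 and 8 in adult 6. These were 0.778, 0.507, 0.220 and 1.22 CPM in the juveniles, against 0.898 CPM in adult 5 and 0.611 CPM in adult 6, with both adults inside the range of the juveniles. Transcript 8, of 2944 nt, stood at 0.856, 0.83, 0.303 and 0.753 CPM in the juveniles and at 0.0898 and 0.841 CPM in adults 5 and 6. It was near the level of most juveniles in adult 6 and lowest in adult 5, where only 2 counts were found. Per unit of length the short transcript 6 reached 1.35 ± 0.840 CPM per kb (SD, n = 4 juveniles), beside 1.37 CPM per kb for transcript 14 and 0.233 ± 0.0879 CPM per kb for transcript 8. Only reads with a unique match were counted, so stretches that transcripts of a locus share did not contribute, and levels of single transcripts within a locus are uncertain.

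The share of the PCK1 locus on transcript 14 fell into 2 ranges that did not follow the stage. It was 84.7% in juvenile 2 and 87.7% in juvenile 3, with Wilson 95% intervals of 78.8% to 89.1% and of 81.5% to 92.0%. In juveniles 1 and 4 it was 71.4% and 71.1%, with intervals of 65.1% to 76.9% and of 65.5% to 76.1%, and in adults 5 and 6 it was 72.8% and 71.2%. The intervals of juveniles 2 and 3 thus did not overlap those of juveniles 1 and 4, while those of the adults (62.3% to 81.3% and 59.4% to 80.7%) overlapped the interval of juvenile 2. These intervals take every count as independent, so the separation among the juveniles may not hold if both reads of a pair were counted. The juvenile mean was 78.7 ± 8.71% (SD, n = 4), 6.66 points over the adults, with p = 0.400 in the exact permutation test.

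**Figure D2:**
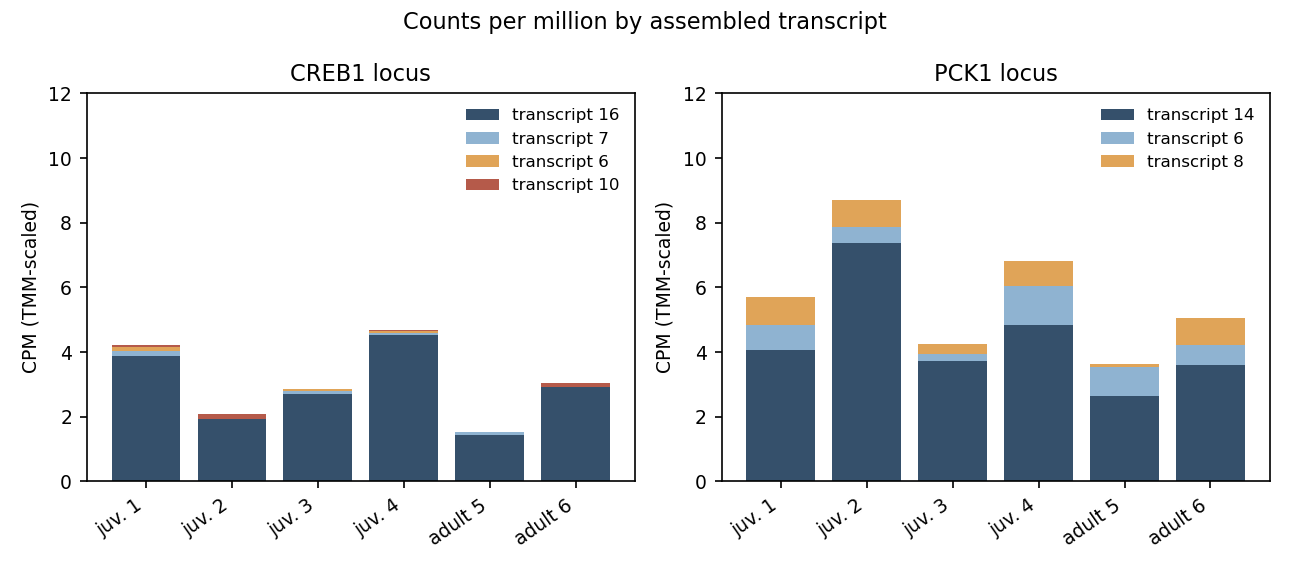
Stacked CPM of the counted transcripts of the CREB1 locus (left) and the PCK1 locus (right), with 1 bar per animal. Transcript 16 makes up 91.4% to 96.4% of the CREB1 counts of an animal, and transcript 14 makes up 71.1% to 87.7% of the PCK1 counts.

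None of the other transcripts of either locus reached the minimum for the test. In a fit of all 107370 transcripts with at least 1 count, where 0.00652% of transcripts were called, none of the 7 members with a count passed. PCK1 transcript 6 had a log2 fold change of -0.14 ± 0.87 (SE) and transcript 8 one of 0.69 ± 1.01 in this fit, with adjusted p of 0.963 and 0.823 by edgeR's quasi-likelihood test. The SE of CREB1 transcripts 6, 7 and 10 lay between 1.84 and 2.71 on the log2 scale.

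Summed over the locus, CREB1 stood at 4.17, 2.10, 2.83 and 4.60 CPM in juveniles 1 to 4 and at 1.55 and 3.12 CPM in adults 5 and 6, in the same order of animals as transcript 16. The PCK1 locus sum was 5.62, 8.81, 4.18 and 6.67 CPM in the juveniles, against 3.69 CPM in adult 5 and 5.15 CPM in adult 6. Adult 6 was above juvenile 3 in this sum, so that the groups overlapped for both loci, while 10.5% of all loci tested had every juvenile above both adults. The log2 fold change of juveniles over adults was 0.57 ± 0.52 (SE, adjusted p of 0.780 by edgeR's quasi-likelihood test) for the CREB1 sum and 0.52 ± 0.43 (adjusted p of 0.759) for the PCK1 sum. Of 14797 loci tested, 0% were called, with 1115 at an unadjusted p under 0.05, 24 called by the exact test of edgeR and 68 by DESeq2. The median over all loci was 0.10 on the log2 scale. On library totals alone, where this median was 0.89, the sums were at 1.56 for CREB1 and at 1.37 for PCK1.

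Across the 6 animals no relation between the levels of both genes passed the test. On log2 CPM with a prior count of 2, Pearson's r between CREB1 transcript 16 and PCK1 transcript 14 was 0.21, with p = 0.733 in an exact permutation test over all pairings, and Spearman's rho was 0.37 (exact p = 0.497). For the locus sums r was 0.30 (exact p = 0.560) and rho 0.43 (exact p = 0.419). With adjustment over these 2 relations the p of both r was 0.733 and that of both rho 0.497. Without juvenile 4 and adult 5, the animals farthest from the median of CREB1, r was -0.75 for the named transcripts and -0.55 for the sums. These 2 values rest on 4 animals and show only how far r depends on single animals. With 4 juveniles and 2 adults no r is given within a stage. On library totals alone, without TMM, r was 0.68 for the named transcripts (rho 0.60) and 0.74 for the locus sums (rho 0.77), each with an adjusted p of 0.161 for r by the exact permutation test.

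With TMM the value of r depended on juvenile 2. Without it, the other 5 animals had r = 0.99 for the named transcripts and r = 0.93 for the locus sums, each with an adjusted p of 0.0167 by the exact permutation test. Without adult 5, r was -0.48 and -0.26. With any animal but juvenile 2 left out, r was at most 0.27 for the transcripts and 0.36 for the sums. The r without juvenile 2 is thus the highest of 6 omissions, and its p is not adjusted for the choice of the animal. No relation can be concluded from it, and over all 6 animals none passed the test. Of the 18715 other transcripts tested, 39.6% were correlated with CREB1 transcript 16 at least as highly as PCK1 transcript 14 was, and 37.1% were correlated with PCK1 transcript 14 at least as highly as CREB1 transcript 16.

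**Figure D3:**
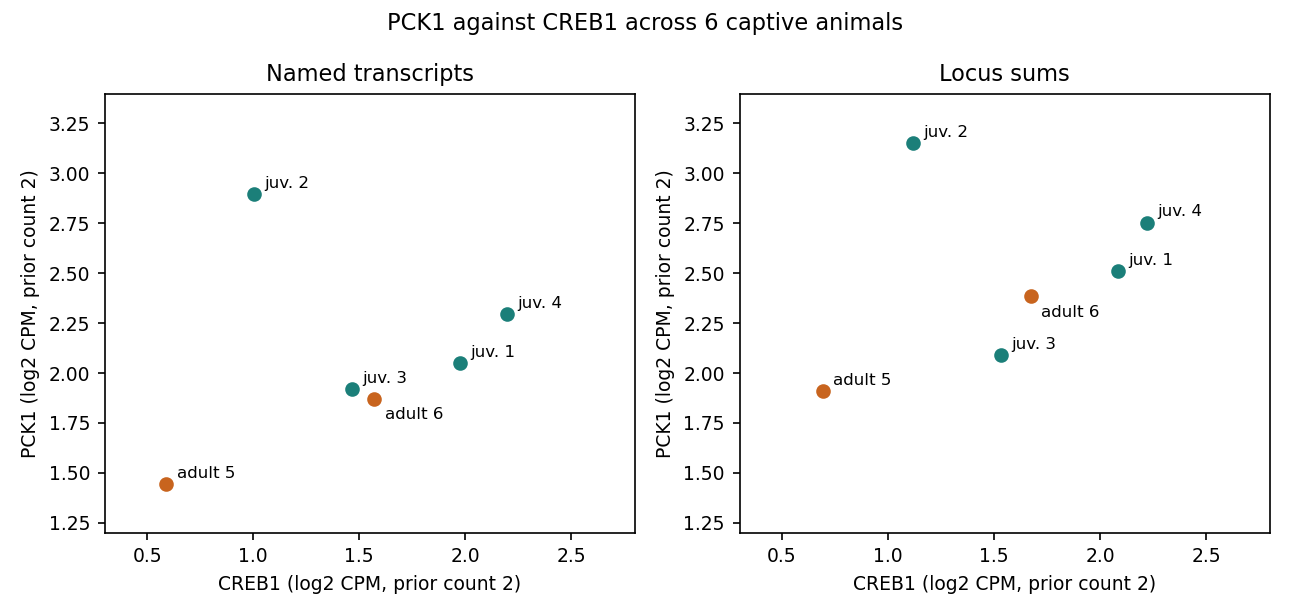
Log2 CPM of PCK1 against CREB1 for the named transcripts (left) and the locus sums (right), 1 labelled point per animal, juveniles in teal and adults in orange. Juvenile 2 lies apart from the other 5 animals, and r is 0.21 with it and 0.99 without it for the named transcripts, the highest of 6 omissions of 1 animal.

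The ratio of both genes within a library does not depend on scaling. It was looked at after the levels had been seen and is a description. Per CREB1 transcript 16 count there were 1.05, 3.81, 1.38 and 1.07 counts of PCK1 transcript 14 in juveniles 1 to 4, against 1.84 in adult 5 and 1.24 in adult 6. The exact 95% interval of juvenile 2, 2.70 to 5.49, lay above those of the other juveniles and of adult 6 and overlapped that of adult 5, 1.18 to 2.93. These intervals also take every count as independent and are too narrow if both reads of a pair were counted. The geometric means of the stages were close, 1.56 in the juveniles and 1.51 in the adults. Corrected for full assembled length, with the same uncertainty about unique matches, the ratios of the other 3 juveniles were 0.739, 0.967 and 0.751. That of juvenile 2 was 2.67.

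Summed markers of other cells also varied between the animals. The summed level of 6 muscle transcripts was 183 CPM in juvenile 2, against 376 to 1865 CPM in the other juveniles and 2314 and 2315 CPM in the adults. In the other 5 animals striated muscle myosin heavy chain, at 294 to 2176 CPM, made up most of this sum, against 43.2 CPM in juvenile 2. Smoothelin like 1 (0.968 CPM) and leiomodin 3 (4.88 CPM) were also lowest in juvenile 2. The highest juvenile levels of alpha-actinin-2 (74.3 CPM), muscle actin (27.7 CPM) and cardiac alpha actin 1 (31.7 CPM) were those of juvenile 2. The sum of 5 transcripts of cilia was 54.9 CPM, against 16.5 to 32.1 CPM in the other 5 animals. In juvenile 2 axonemal dynein heavy chain 10 made up 43.8 CPM of it, while coiled-coil protein CCDC63 had its lowest level there at 0.415 CPM. Of these 11 markers none was at 0 in any animal, and all 6 muscle and 2 of 5 cilia transcripts reached the minimum for the test. The pair of neuronal transcripts, ELAV and synaptogyrin 1a, summed to 4.56 CPM in juvenile 2, inside the range of 2.92 to 8.87 CPM of the juveniles, and to 2.02 and 1.45 CPM in the adults. The library of juvenile 2 was the smallest of the 6. The part of these differences in the PCK1 and CREB1 levels was not tested.

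Enzymes around PCK1 were read from a list of carbon metabolism that held 9 named transcripts, all of which were tested. None passed the test in either direction, while 7 had an unadjusted p under 0.05 with lower levels in the juveniles, against 3.88% of all transcripts tested. In 7 of 9 every juvenile was below both adults, against 8.6% of all transcripts tested. On library totals alone 1 of 9 was separated in this way and 0 had an unadjusted p under 0.05, and DESeq2 size factors separated 8. The log2 fold change was negative for all 9 with TMM and for 7 of 9 on library totals alone, and its median was -0.92, or -1.03 relative to the median of all transcripts (0.11). The list is not independent of these animals, since it was put together with earlier results of the same counts known. Its names also come from the study's supplementary list of transcripts that differed between wild and farmed animals. The study places the farmed reads in this series. The shares over all transcripts tested are thus not a like background for the list.

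Pyruvate kinase, which consumes the phosphoenolpyruvate that PCK1 makes, stood at 6.97, 7.28, 9.08 and 8.04 CPM in juveniles 1 to 4 and at 20.6 and 14.1 CPM in adults 5 and 6. Its groups did not overlap, and its log2 fold change was -1.15 ± 0.33 (SE, adjusted p of 0.637 by edgeR's quasi-likelihood test). Cytosolic glycerol-3-phosphate dehydrogenase 1, which joins glycolysis to lipid synthesis, was at 4.88 to 10.8 CPM in the juveniles and at 22.2 and 25.7 CPM in the adults, with a log2 fold change of -1.50 ± 0.39. NAD(P) transhydrogenase, a mitochondrial source of NADPH, was at 66.8 to 112 CPM in the juveniles and at 182 and 256 CPM in the adults (-1.41 ± 0.38). Malic enzyme 3, which turns malate into pyruvate, was at 4.01 to 8.21 CPM and at 15.7 and 12 CPM (-1.20 ± 0.43). These 3 transcripts had the same adjusted p of 0.637.

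The pyruvate dehydrogenase E1 alpha subunit, which admits pyruvate to the citrate cycle, had a log2 fold change of -0.91 ± 0.37 (SE). The 2-oxoglutarate/malate carrier of the inner mitochondrial membrane had one of -0.92 ± 0.37, and dihydrolipoyllysine-residue succinyltransferase, a subunit of 2-oxoglutarate dehydrogenase, one of -0.77 ± 0.32. All of these had separate groups. Aconitate hydratase of the citrate cycle overlapped between the groups (-0.61 ± 0.39, adjusted p of 0.687 by edgeR's quasi-likelihood test). Glutamate dehydrogenase, which feeds amino acid carbon into the cycle, was at 17.7, 35.3, 17.6 and 19.9 CPM in juveniles 1 to 4 and at 25.4 and 21.5 CPM in the adults, with a log2 fold change of -0.05 ± 0.41. It was highest in juvenile 2, as PCK1 transcript 14 was.

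Set against pyruvate kinase within each library, PCK1 transcript 14 was higher in the juveniles. The ratio of counts was 0.584, 1.01, 0.409 and 0.601 in juveniles 1 to 4, against 0.129 in adult 5 and 0.254 in adult 6. The lowest juvenile ratio had an exact 95% interval of 0.332 to 0.501 and the highest adult ratio one of 0.180 to 0.352, so that the groups did not overlap while these intervals did. This ratio needs no scaling between libraries. It was chosen after its values had been seen, and it is a description without a test.

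**Figure D4:**
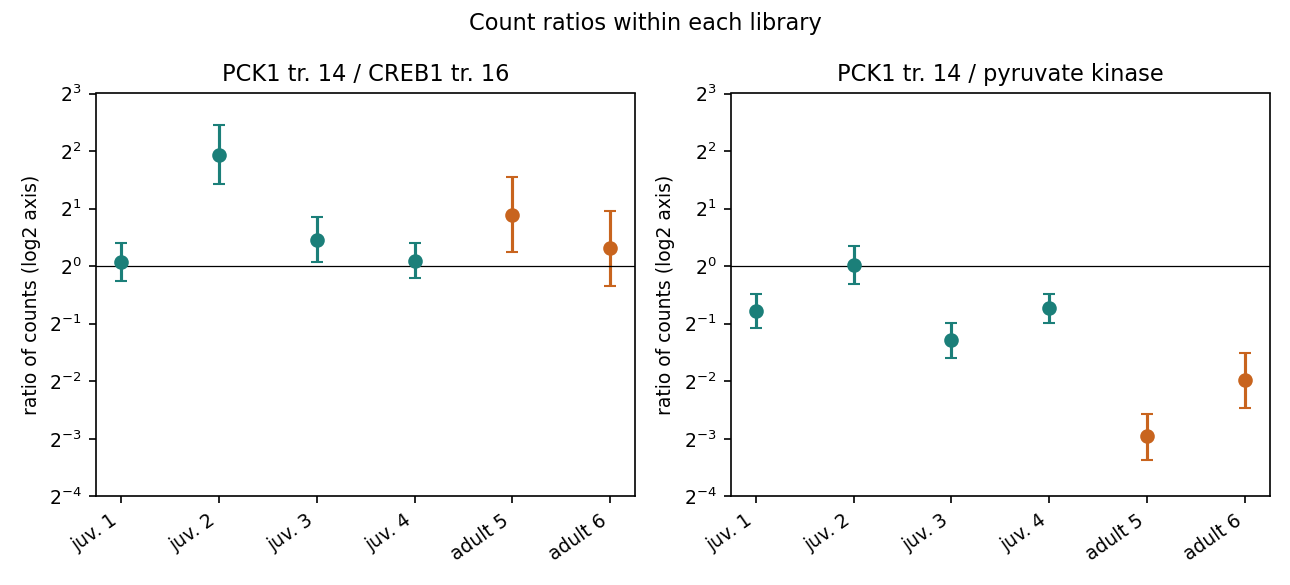
Counts of PCK1 transcript 14 per count of CREB1 transcript 16 (left) and per count of pyruvate kinase (right) in each library, on a log2 axis, with exact 95% intervals, juveniles in teal and adults in orange. On the left juvenile 2 is highest at 3.81, and on the right the 4 juveniles (0.409 to 1.01) lie above the 2 adults (0.129 and 0.254).

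The list of CREB signalling held 6 transcripts, of which all were tested and none passed in either direction or had an unadjusted p under 0.05. Their names come from the same supplementary list as those of carbon metabolism. With TMM 2 of the 6 had higher and 4 lower values in the juveniles, while on library totals alone these counts were 4 and 2. The median log2 fold change was -0.48, and relative to all transcripts it was -0.59 with TMM and -0.52 on library totals alone. Calmodulin, the calcium sensor upstream of kinases that phosphorylate CREB1, was at 7.80, 4.1, 4.92 and 4.33 CPM in juveniles 1 to 4 and at 5.88 and 2.45 CPM in the adults (0.34 ± 0.51, SE). The stress kinase MAPK14-1 was at 3.08 to 7.56 CPM in the juveniles and at 6.29 and 3.97 CPM in the adults (0.06 ± 0.47). Both overlapped between the stages.

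Among the phosphatases, whose relatives in mammals remove the activating phosphate of CREB1, the groups were separate for the beta catalytic subunit of protein phosphatase 1, with 45.7 to 59.3 CPM in the juveniles, against 110 CPM in adult 5 and 62.5 CPM in adult 6 (-0.75 ± 0.37, adjusted p of 0.645 by edgeR's quasi-likelihood test). The gamma catalytic subunit was at 8.66 to 14.7 CPM and at 17.8 and 19.8 CPM (-0.58 ± 0.35), also without overlap, while on library totals alone 0 of the 6 transcripts were separated between the stages. The regulatory subunit B'gamma of protein phosphatase 2 was at 21.3 to 33.9 CPM and at 31.7 and 38.7 CPM (-0.38 ± 0.35). Hepatic leukemia factor, like CREB1 a transcription factor of the basic leucine zipper class, was at 38.6, 44.8, 77.4 and 54.9 CPM in juveniles 1 to 4 and at 75.4 and 136 CPM in the adults (-0.97 ± 0.43, adjusted p of 0.637). It overlapped between the groups, since juvenile 3 was above adult 5.

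**Figure D5:**
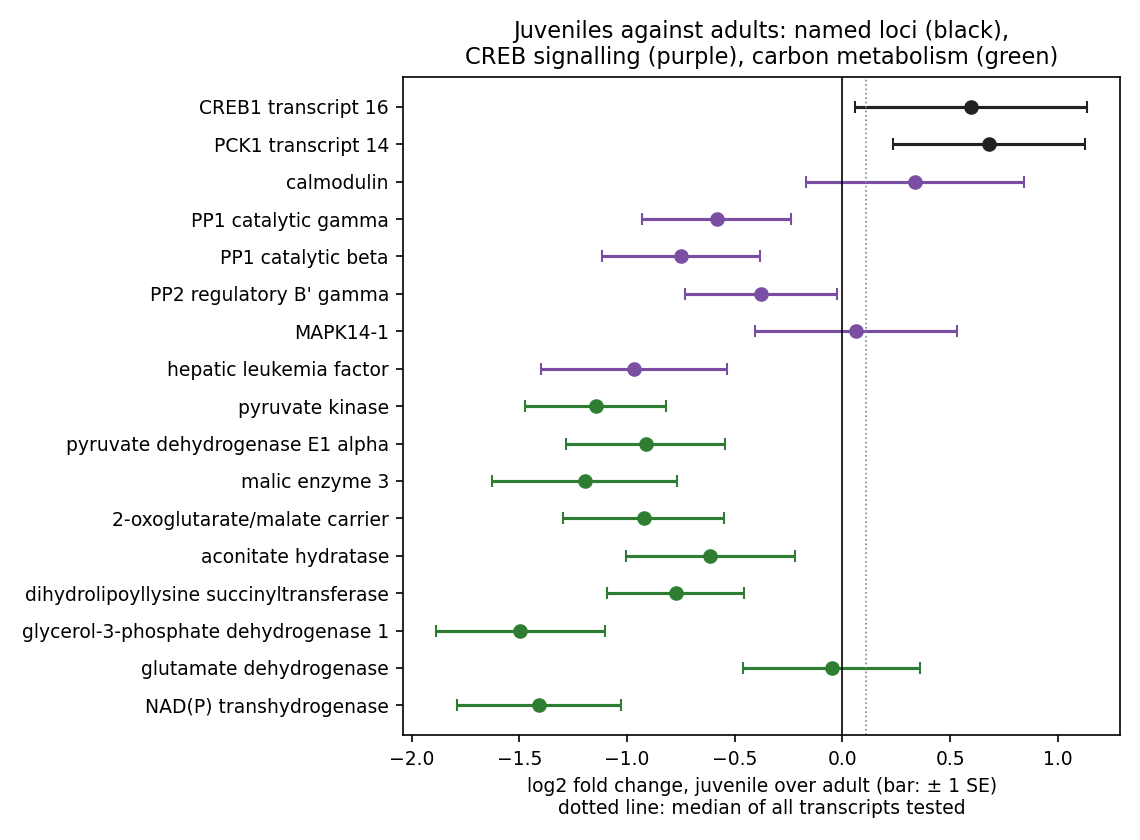
Log2 fold changes of juveniles over adults with ± 1 SE for the CREB1 and PCK1 named transcripts (black), 6 transcripts of CREB signalling (purple) and 9 of carbon metabolism (green), with a dotted line at the median of all transcripts tested (0.11). The 2 named transcripts are at 0.60 and 0.68, and all 9 of carbon metabolism are below 0, a sign that 2 of them lose on library totals alone.

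The pattern of CREB1 transcript 16 across the 6 animals was most like that of 3 low transcripts, as measured by Pearson's r of log2 CPM among the 306 named transcripts tested. These were transcript 6 of locus 12851 (r = 0.94), matched to a microsatellite sequence of Isostichopus fuscus, transcript 21 of locus 2993 (r = 0.93), matched to a P-loop protein of a fungus, and transcript 4 of locus 5179 (r = 0.90), matched to BAHCC1 of the bottlenose dolphin. The first of them was at 4.02, 2.03, 2.70 and 4.91 CPM in juveniles 1 to 4 and at 2.16 and 2.83 CPM in the adults. For PCK1 transcript 14 they were transcript 1 of locus 1938 (r = 0.94), matched to a zinc finger SWIM domain protein of a sea urchin, transcript 2 of locus 4000 (r = 0.78), matched to a genome scaffold of the carp, and transcript 88 of locus 2435 (r = 0.72), matched to ferritin. The first had its highest level in juvenile 2, 11.5 CPM against 3.32 to 6.30 CPM in the other animals, and the ferritin transcript was at 17.9 to 38.0 CPM in the juveniles and at 11 and 9.94 CPM in the adults. An r over 0.9 was reached by 0.946% of the 18715 transcripts for CREB1 and by 1.44% for PCK1. These values describe 6 animals that share their depth and scaling factors across all transcripts. The 306 named transcripts belong to the study's list of differences between wild and farmed animals and are no sample of all transcripts.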

How the data were processed

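Body wall libraries of 6 captive animals were compared as 4 juveniles and 2 adults. The authors prepared stranded poly(A) libraries and mapped paired reads to a transcriptome assembled from wild animals. For the mapper, HISAT2, no version is stated. The deposited counts are whole-number counts of unique matches per transcript, without normalization, and the authors tested with edgeR 3.20.9. Here R 4.3.3 and edgeR 4.0.16 were used, with TMM factors, a minimum of 3 CPM on library totals in at least 3 animals of either stage, the quasi-likelihood test without covariates and Benjamini-Hochberg adjustment over all features, also for counts summed per locus. SE values are the log2 fold change divided by the root of F. DESeq2 1.42.0 was an alternative. The script was tested on simulated data. Names came from the study's supplementary list of transcripts that differed between wild and farmed animals and matched a nucleotide database. Its 326 transcripts were all among those counted. The text names both named transcripts, up to 3 others of highest mean CPM at each locus (transcript 9 of the CREB1 locus, at 0, was added to account for all members), both pathway lists and the 3 most similar named transcripts. Members and lists were chosen with earlier results of these data known. No wild library and no genome were used, and no sequence of a member was at hand. The numbers of the animals are not shared between stages.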

Additional observations from a re-analysis of the deposited data

Results flagged for a closer look

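Among the juveniles, 47 sets of 4 values were searched for 1 value far from the others, by Dixon's ratio of the gap to the range, and 4 exceeded its 95% critical value. Chance gives this in about 1 in 20 sets. Juvenile 2 was apart in the CPM of glutamate dehydrogenase (0.870) and of the ciliary protein CCDC170 (0.843). Juvenile 3 was apart in 2 short collagen transcripts, those of locus 121075 (0.902) and of locus 121087 (0.893). No single level, locus sum or share of the CREB1 and PCK1 loci exceeded the critical value.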

How the results depend on the processing

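No paired analysis was possible because the numbers of the animals run from 1 to 6 and none is shared between juveniles and adults. Both named transcripts and both locus sums kept a positive sign and stayed without a call under 6 alternatives each (normalization, test, no filter), and neither transcript nor sum reached 3 CPM on library totals in both adults, so the filter on adults gave no value. Leaving out 1 animal gave log2 fold changes of 0.17 to 1.15 for CREB1 transcript 16 and 0.14 to 1.12 for its sum, in 3 fits each since it missed the minimum without juvenile 1, 3 or 4, and of 0.39 to 0.88 for PCK1 transcript 14 and 0.28 to 0.75 for its sum. Adjusted p over all alternatives was 0.316 to 1.00 for both transcripts and 0.267 to 1.00 for both sums. Calls of transcripts rose from 0 to 42 with the exact test of edgeR, 95 with DESeq2 and 7 without a filter, and calls of loci to 24, 68 and 12, and stayed at 0 without any 1 animal. The share difference was -1.57 to 0.0869 points for CREB1 and 3.67 to 9.20 points for PCK1 without 1 animal. Pearson's r was -0.48 to 0.99 for the transcripts and -0.26 to 0.93 for the sums without 1 animal, and 0.17 to 0.68 and 0.27 to 0.74 under other scalings and a prior count of 0.5, highest on library totals alone. With 32 to 186 counts in a library for CREB1 transcript 16, depth limits each value, and the causes of these changes were not tested.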
